A study of Mus musculus with 18 samples.

Results

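Transcripts of 9 genes of the blood-testis barrier and its junctions were followed in the testis of hypogonadal (hpg) mice given follicle-stimulating hormone (FSH). The genes were chosen by name: the claudins Cldn1, Cldn3, Cldn5 and Cldn11, occludin (Ocln), the junctional adhesion molecules F11r and Jam3, the scaffold protein Tjp1 and the gap junction protein Gja1. All 9 were measured, among 12393 genes that had at least 1 probe set annotated with a single symbol, and they had 22 probe sets between them. For each gene the probe set with the highest mean over the 18 arrays is given as the main one, and 4 genes (Cldn5, Cldn11, Ocln and Tjp1) had only 1. A main probe set mean of at least 4 on the log2 scale was reached by 8 of the 9 genes, all but Cldn3, and by 13 of the 22 probe sets.

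Whole testes came from hpg males 10 weeks old, which make no gonadotrophin-releasing hormone, so that their pituitary releases hardly any FSH or luteinising hormone. Treated males received 8 IU of recombinant FSH (Gonal F) under the skin every 12 h for 12, 24 or 72 h and were killed 1 h after the last dose, and the groups held 4, 3 and 4 mice. The controls were 7 hpg males of equal age that received nothing, each mouse gave 1 array, and the strain is not given in the sources used here. All groups were hpg, so normal males were not compared, and the RNA of every testicular cell type was pooled in each sample.

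Sertoli cells are the supporting cells of the seminiferous tubule and carry the FSH receptor. Between neighbouring Sertoli cells tight junctions form a seal that divides the tubule wall into a basal part, where spermatogonia lie, and an inner part, where meiosis and spermatid development take place. Claudins and occludin span the membrane and make the seal, junctional adhesion molecules stand beside them, and scaffold proteins such as Tjp1 (also called ZO-1) tie them to actin. Adherens-type contacts, including the ectoplasmic specialisation, desmosomes and gap junctions lie at the same cell borders. The barrier is known to form at puberty, when gonadotrophins rise and Sertoli cells mature, and FSH is known to act in Sertoli cells largely through cyclic AMP.

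Promoter sequences are shown for F11r and Cldn1, which were lower at every time, and for Cldn5 and Cldn11, the claudins whose changes at 12 h ran in opposite directions. Each is the 250 bases before the gene's annotated start in RefSeq (build GRCm38.p6), written 5′ to 3′ on the strand of the gene. Capitals mark matches on either strand to CCAAT (the CCAAT box), GGGCGG (the GC box) or TGACG (the core of a cyclic AMP response element, which also lies within the full element TGACGTCA). F11r lies on the plus strand at chr1:171437311-171437560, where the window overlaps the gene Gm26641. Cldn1 lies on the minus strand at chr16:26371840-26372089, Cldn5 on the plus strand at chr16:18776597-18776846 and Cldn11 on the plus strand at chr3:31149670-31149919.
F11r: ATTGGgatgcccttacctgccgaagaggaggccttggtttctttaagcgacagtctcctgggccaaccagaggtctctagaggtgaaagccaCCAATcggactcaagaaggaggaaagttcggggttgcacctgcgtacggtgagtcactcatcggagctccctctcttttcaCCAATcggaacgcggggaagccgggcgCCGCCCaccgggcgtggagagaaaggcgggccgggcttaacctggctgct
Cldn1: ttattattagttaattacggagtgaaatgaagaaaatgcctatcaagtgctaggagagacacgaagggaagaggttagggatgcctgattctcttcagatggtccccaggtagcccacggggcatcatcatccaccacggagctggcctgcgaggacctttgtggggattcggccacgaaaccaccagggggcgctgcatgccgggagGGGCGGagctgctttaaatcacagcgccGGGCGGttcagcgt
Cldn5: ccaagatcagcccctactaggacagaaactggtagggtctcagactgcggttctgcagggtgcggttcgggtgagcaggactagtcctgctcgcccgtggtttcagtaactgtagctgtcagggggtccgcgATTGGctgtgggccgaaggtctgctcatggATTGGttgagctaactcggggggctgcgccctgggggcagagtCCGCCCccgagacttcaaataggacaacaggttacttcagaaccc
Cldn11: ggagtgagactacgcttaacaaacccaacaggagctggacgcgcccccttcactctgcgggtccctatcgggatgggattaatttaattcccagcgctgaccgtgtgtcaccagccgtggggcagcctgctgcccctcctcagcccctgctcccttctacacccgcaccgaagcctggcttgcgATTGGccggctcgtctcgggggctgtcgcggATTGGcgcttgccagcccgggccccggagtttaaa
The windows of Cldn5 and Cldn11 each held 2 CCAAT boxes on the opposite strand, the first base of each match standing 118 and 88 bases before the start of Cldn5 and 66 and 35 bases before that of Cldn11. Cldn5 also held a GC box on the opposite strand, 45 bases before its start, and Cldn11 held none. F11r held 3 CCAAT boxes and 1 GC box, and Cldn1 held 2 GC boxes, at 42 and 14 bases before its start. These are common letters: of 32851 RefSeq promoters cut to the same length, 33.8% held a CCAAT box and 32.7% a GC box. The full cyclic AMP response element, found in 1.55% of promoters, was in none of the windows of the 8 genes for which the table had a promoter, and the core, found in 17.8%, was in those of Gja1 and Cldn3. Jam3 was not matched in the promoter table. A match describes these letters and is not a binding site.

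The arrays fell into 2 technical sets, so each treated group was compared with the controls of its own set. The spiked-in bacterial transcript Dap read 8.05 to 8.86 on the 12 arrays of 12 h, 72 h and controls 4 to 7, and 2.70 to 3.41 on the 6 arrays of 24 h and controls 1 to 3. The 18S ribosomal RNA probe sets read 3.35 to 3.70 in the first set and 9.07 to 11.69 in the second, and the difference between the 3′ and 5′ actin probe sets was 1.22 to 1.82 and 0.82 to 1.10. In the second set the 18S reading of 9.07 was that of control 1, and the other arrays read 11.05 to 11.69. Array medians were 4.44 to 4.63, and correlations between arrays were 0.945 to 0.997. The Sertoli marker list, with 13 of 14 genes measured, had a mean level of 8.07 to 9.04 over all arrays, and only Amh, a product of immature Sertoli cells, was below 4 in every group. The list's levels differed between groups and are given below with the other markers.

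Of the 9 genes, 5 passed the test at 12 h, 6 at 24 h and 3 at 72 h. A gene is said to have risen or fallen where limma's adjusted p, Benjamini-Hochberg over 22626 probe sets, was below 0.05. F11r and Cldn1 fell and Jam3 rose at all 3 times, Cldn5 fell at 12 and 24 h, Ocln and Tjp1 fell at 24 h, and Cldn11 rose at 12 h. Gja1 and Cldn3 did not pass the test at any time with their main probe sets. At 12 h the 2 rises and 3 falls stand beside 5.35% of all probe sets called (3.2% higher, 2.16% lower) and 6.28% of genes taken with 1 probe set each. At 24 h there were 1 rise and 5 falls beside 13.4% of probe sets (6.1% higher, 7.26% lower) and 14.8% of genes; with paired replicate numbers 6 of the 9 genes were still called and the probe sets called went from 3023 to 4827. At 72 h there were 1 rise and 2 falls beside 6.13% of probe sets (3.63% higher, 2.5% lower) and 7.26% of genes. The median change of the 9 genes was 0.01 at 12 h, -0.87 at 24 h and -0.02 at 72 h, against 0.00, 0.04 and 0.01 over all probe sets. The 12 h and 72 h comparisons share controls 4 to 7, so their values are given side by side. Treated and control arrays did not overlap for 5, 6 and 5 of the genes, where 10.5%, 36.9% and 12.6% of all probe sets did not overlap. In whole testis, fewer cells of a type and less RNA per cell cannot be told apart.

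**Figure D1:**
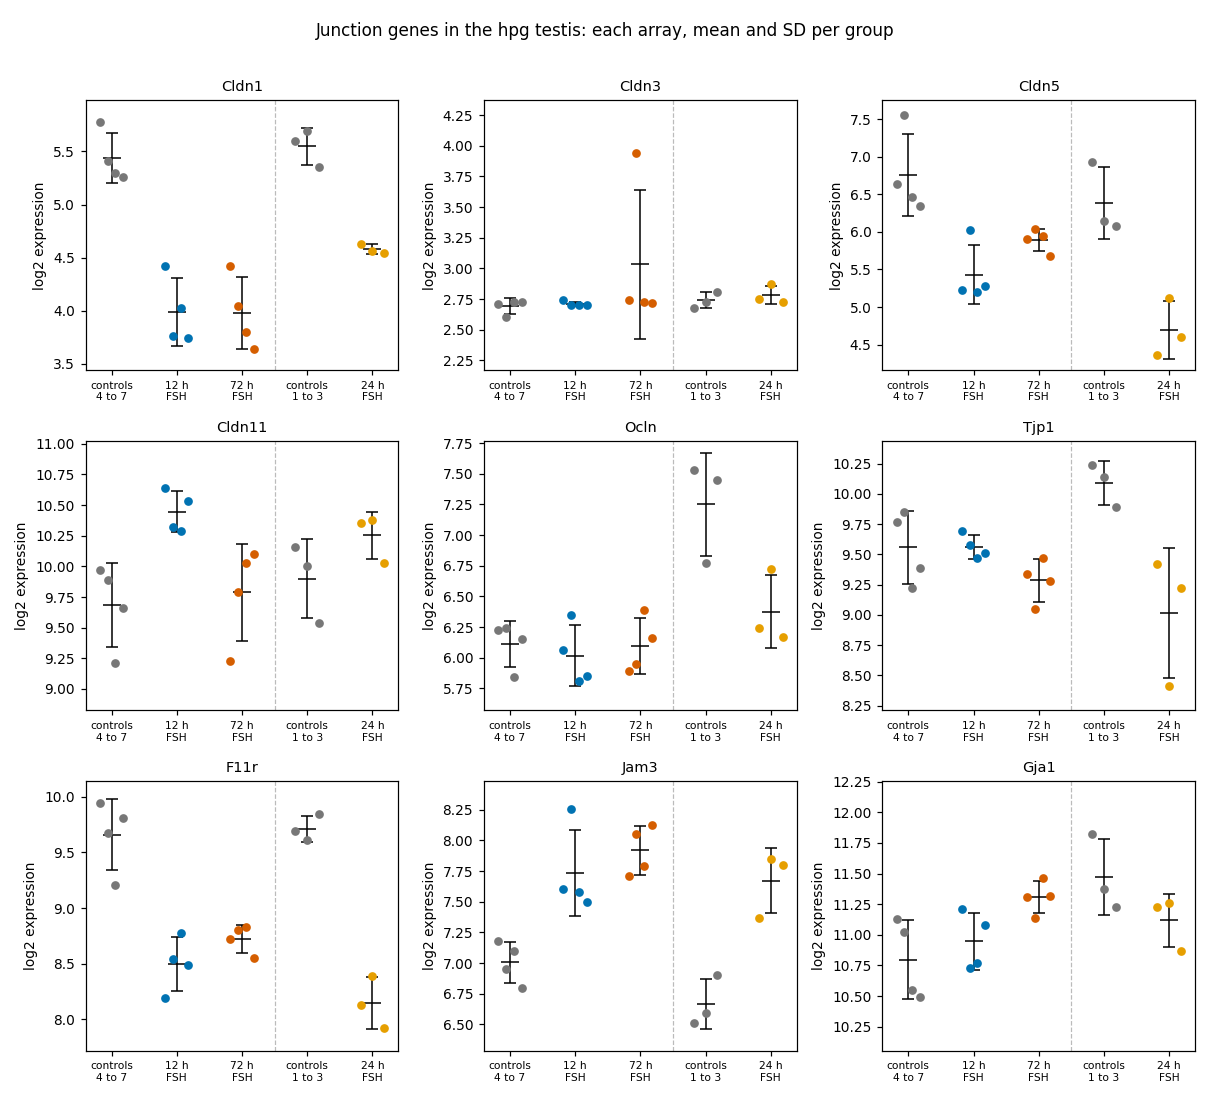
Log2 expression of the main probe set of each of the 9 junction genes on every array (points), with the mean and SD of each group (bars); the dashed line parts the 2 technical sets, and each panel has its own vertical axis. F11r and Cldn1 sit lower and Jam3 sits higher in all 3 treated groups than in the controls of their set, while the 3 controls of the second set are high for Ocln.

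Markers of other cell types were counted in the same samples, and their part in the results was not tested. Of all genes, 3.52% rose and 2.76% fell at 12 h. The shares were 6.38% and 8.45% at 24 h, and 4.23% and 3.03% at 72 h. No marker count was tested against these shares. Germ cell markers, 9 genes, had a mean level of 8.25 to 8.56 in controls 4 to 7, 7.86 to 8.30 at 12 h and 7.83 to 8.18 at 72 h, and of 8.31 to 8.44 in controls 1 to 3 against 7.47 to 7.95 at 24 h. They fell in 2, 4 and 2 cases at 12, 24 and 72 h, and only Zbtb16 was below 4 throughout. Sall4, a spermatogonial transcription factor, fell at all 3 times, by 0.65 ± 0.12, 1.10 ± 0.14 and 1.03 ± 0.12 (log2, SE). The germ cell markers Dazl, Ddx4 and Sycp3, with group means of 9.10 or more, were not called at any time. Leydig cell markers, 7 of 8 measured, rose in 4, 5 and 1 cases, with mean levels of 6.78 to 7.64 in controls 4 to 7, 8.22 to 8.55 at 12 h, 7.28 to 7.91 at 72 h, 6.66 to 6.81 in controls 1 to 3 and 8.06 to 8.83 at 24 h, and Hsd17b3 was below 4 throughout. Myoid markers, 7 genes, rose in 2, 1 and 1 cases, with mean levels of 7.53 to 8.13 and 7.39 to 7.77 in the controls of the first and second set, 8.14 to 8.62 at 12 h, 7.90 to 8.08 at 24 h and 7.94 to 8.33 at 72 h, and Des was below 4. Of the Sertoli markers themselves, 2 rose and 2 fell at 12 h, 3 rose and 2 fell at 24 h, and 5 rose and 1 fell at 72 h. Their mean levels were 8.19 to 8.36 in controls 4 to 7, 8.08 to 8.28 at 12 h and 8.87 to 9.04 at 72 h. In the second set they were 8.07 to 8.25 in controls and 8.37 to 8.58 at 24 h. Of 7 macrophage markers 1 fell at 12 h, 1 fell at 24 h and 2 rose at 72 h, with mean levels of 5.52 to 6.49 over all arrays and Cd14 below 4. Of 10 duct epithelium markers measured of 11, Epcam, with a mean of 9.06 in controls 4 to 7, fell at each time. Adam28 rose at 24 h by 0.18 ± 0.05 (log2, SE), with group means of 2.69 or less. In every group 8 of the 10, Adam28 among them, were below 4, and list means were 3.19 to 3.46. All 3 red blood cell markers measured of 5 were below 4, with 0 called and 0 at an unadjusted p below 0.05 at any time.

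Cldn1, a barrier claudin of many epithelia, fell at every time. Its main probe set read 5.78, 5.41, 5.30 and 5.26 in controls 4 to 7, 4.42, 3.76, 4.03 and 3.74 at 12 h, and 4.42, 4.04, 3.80 and 3.64 at 72 h. In the second set it read 5.60, 5.69 and 5.35 in controls and 4.63, 4.56 and 4.54 at 24 h. Every treated array was below every control array of its set. The change was -1.46 ± 0.18 at 12 h (log2, SE; 4 against 4 mice), a 2.74-fold lower level with an adjusted p of 0.00014. At 72 h it was -1.47 ± 0.18 (2.76-fold lower, adjusted p 0.000164), and at 24 h -0.97 ± 0.20 (1.96-fold lower, 3 against 3 mice, adjusted p 0.00662). The 24 h call was lost with array weights (-0.94, adjusted p 0.0604). The other 3 Cldn1 probe sets had means of 2.17 to 2.75, near the floor of the arrays, and none passed the test; 1450014_at, at -0.22 ± 0.10 at 24 h, passed it without control 2 (-0.39, adjusted p 0.00287) and with the replicate numbers as pairs (adjusted p 0.0387).

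Cldn5, best known from the tight junctions of blood vessels, fell at 12 and 24 h. In controls 4 to 7 the arrays read 6.64, 7.55, 6.47 and 6.35, at 12 h 5.23, 6.02, 5.20 and 5.28, and at 72 h 5.91, 6.04, 5.94 and 5.68. Controls 1 to 3 read 6.93, 6.14 and 6.08, and the 24 h arrays 4.36, 5.12 and 4.60. The groups did not overlap at any time, with control 5 the highest of all arrays and 24 h replicate 1 the lowest. The change was -1.32 ± 0.28 at 12 h (2.5-fold lower, adjusted p 0.00997) and -1.69 ± 0.32 at 24 h (3.22-fold lower, adjusted p 0.00343). At 72 h the change of -0.86 ± 0.28 (95% interval -1.45 to -0.27) missed the threshold, with an adjusted p of 0.0906, and passed it with array weights (-0.87, adjusted p 0.0256) and among probe sets with a mean of at least 4 (adjusted p 0.0434). With the second set fitted alone the 24 h call was lost (adjusted p 0.0814).

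The levels of 12 endothelial markers were set beside Cldn5. Vwf, a secreted clotting protein of endothelium, fell at 12 h (-0.63 ± 0.17, adjusted p 0.0475), and none of the other 11 was called at 12 h. At 24 and 72 h limma called 0 of the 12, and 0 and 2 had an unadjusted p below 0.05. The list's mean level was 3.73 to 4.24 in controls 4 to 7, 3.79 to 3.91 at 12 h and 3.66 to 3.91 at 72 h, and 3.64 to 3.89 in controls 1 to 3 against 3.50 to 3.80 at 24 h. In every group 7 of the 12 were below 4. They included Vwf itself, with group means of 3.37 or less, and Pecam1, Cdh5, Tie1 and Flt1, which define the cell type. The median change of the list was -0.08 at 12 h, -0.14 at 24 h and -0.13 at 72 h.

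**Figure D2:**
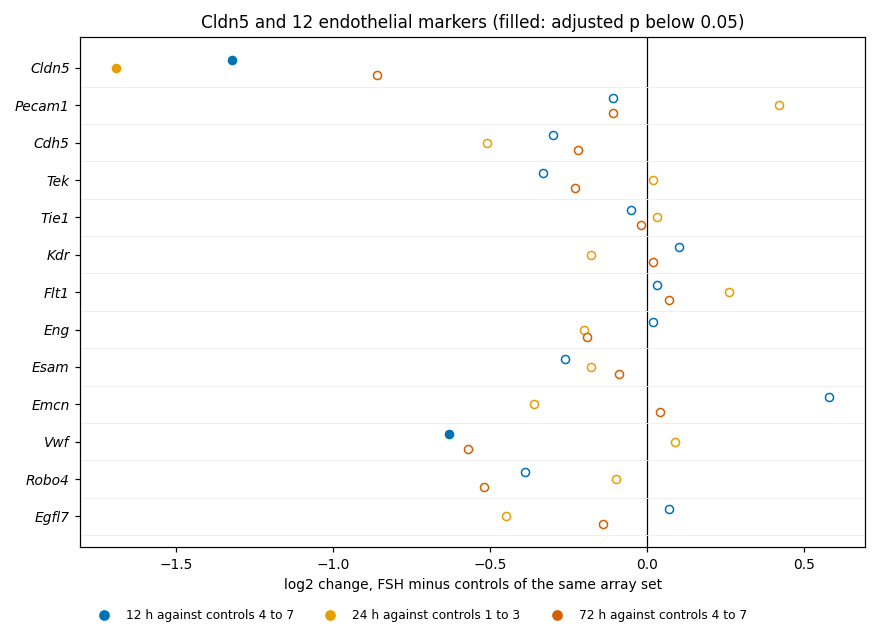
Log2 change of Cldn5 and of 12 endothelial markers at 12, 24 and 72 h of FSH against the controls of the same set (points; filled where limma's adjusted p was below 0.05). Cldn5 lies at -1.32, -1.69 and -0.86, and the only filled marker point is Vwf at 12 h, at -0.63. Vwf had group means of 3.37 or less.

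Cldn11, a claudin of Sertoli cells that the barrier requires, was higher at 12 h. The 12 h arrays read 10.64, 10.32, 10.29 and 10.53 and controls 4 to 7 read 9.97, 9.89, 9.21 and 9.66, whereas the 72 h arrays read 9.23, 9.79, 10.03 and 10.10. The second set read 10.16, 10.00 and 9.54 in controls and 10.35, 10.38 and 10.03 at 24 h. All 12 h arrays lay above all controls of their set, and the 24 h and 72 h arrays overlapped with theirs. The rise there was 0.76 ± 0.20 (1.7-fold, adjusted p 0.0431). It sat at the threshold: it was lost with quantile normalisation (0.73, adjusted p 0.0565), with the first set fitted alone (adjusted p 0.0652) and without any one of 11 of the 18 arrays, the lowest value being 0.61 without control 6 (adjusted p 0.118). The changes at 24 h (0.36 ± 0.24, adjusted p 0.31, interval -0.15 to 0.86) and 72 h (0.11 ± 0.20, adjusted p 0.924, interval -0.33 to 0.54) did not pass the test. The 72 h arrays all lay below the 12 h arrays, by 0.66 ± 0.20 on average, with an adjusted p of 0.134.

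Cldn3, a claudin known to enter the barrier under androgen control, was near the floor on nearly all arrays. Its main probe set read 2.71, 2.60, 2.73 and 2.73 in controls 4 to 7, 2.74, 2.70, 2.70 and 2.70 at 12 h and 2.74, 3.94, 2.73 and 2.72 at 72 h, and 2.68 to 2.87 in the second set. A single 72 h array stood above all the others. The change was 0.02 ± 0.20 at 12 h, 0.04 ± 0.23 at 24 h and 0.34 ± 0.20 at 72 h (95% interval -0.09 to 0.77, adjusted p 0.474). Its other 3 probe sets had means of 2.27 to 2.42, and none of the 4 was called. Probe sets this near the floor do not show how much of the transcript was present.

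Ocln, a membrane-spanning protein of the tight junction, fell at 24 h. In the second set controls read 7.53, 6.77 and 7.45 and the 24 h arrays 6.24, 6.72 and 6.17, with no overlap. In the first set the levels were alike: 6.23, 6.24, 5.84 and 6.15 in controls, 6.06, 6.35, 5.81 and 5.85 at 12 h, and 5.89, 5.95, 6.39 and 6.16 at 72 h. The change at 24 h was -0.87 ± 0.21 (1.83-fold lower, adjusted p 0.0159), at 12 h -0.10 ± 0.19 (adjusted p 1) and at 72 h -0.02 ± 0.19 (adjusted p 0.976). The untreated controls themselves differed between the sets, controls 1 to 3 being 1.13 ± 0.20 higher than controls 4 to 7 (adjusted p 0.00357), where 9.31% of probe sets were called. Against all 7 controls the 24 h change was -0.23 (adjusted p 0.598). Left out one at a time, control 1 (-0.74, adjusted p 0.0781), control 3 (-0.77, adjusted p 0.0509) and 24 h replicate 3 (-0.77, adjusted p 0.0533) each ended the call, as did fitting the second set alone (adjusted p 0.199).

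F11r, the junctional adhesion molecule JAM-A, fell at every time and had the smallest adjusted p of the 9 genes at 24 h. Controls 4 to 7 read 9.94, 9.67, 9.21 and 9.81, the 12 h arrays 8.19, 8.54, 8.78 and 8.49 and the 72 h arrays 8.72, 8.80, 8.83 and 8.55. Controls 1 to 3 read 9.69, 9.61 and 9.84, and the 24 h arrays 8.13, 8.39 and 7.92. No treated array reached a control of its set, and the controls of both sets were within 0.05 ± 0.17 of each other (adjusted p 0.842). The change was -1.16 ± 0.15 at 12 h (2.23-fold lower, adjusted p 0.000318), -1.56 ± 0.18 at 24 h (2.95-fold lower, adjusted p 7.24e-05) and -0.93 ± 0.15 at 72 h (1.91-fold lower, adjusted p 0.00193). No alternative ended any of these 3 calls. The second probe set, 1436374_x_at, had a mean of 2.77 and was not called.

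Jam3, the junctional adhesion molecule JAM-C, known from germ cell contacts as well as tight junctions, rose at every time. Controls 4 to 7 read 7.18, 6.95, 7.10 and 6.80, the 12 h arrays 7.60, 8.26, 7.58 and 7.50 and the 72 h arrays 7.71, 8.05, 7.79 and 8.13. Controls 1 to 3 read 6.51, 6.59 and 6.90 and the 24 h arrays 7.37, 7.85 and 7.80. Every treated array was above every control. The rise was 0.73 ± 0.17 at 12 h (1.66-fold, adjusted p 0.0194), 1.01 ± 0.19 at 24 h (2.01-fold, adjusted p 0.00393) and 0.91 ± 0.17 at 72 h (1.88-fold, adjusted p 0.0043). Without control 7 the 12 h call was lost (0.66, adjusted p 0.0662), and at 24 h it was lost with array weights (0.90, adjusted p 0.0649) and with the second set alone (adjusted p 0.0715). Its other probe set, 1423504_at, had a mean of 2.55 and was not called. The 2 adhesion molecules thus moved in opposite directions on the same arrays.

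Tjp1, the scaffold that ties claudins and occludin to actin, fell at 24 h. Controls 1 to 3 read 10.24, 10.14 and 9.89, and the 24 h arrays 9.42, 8.41 and 9.22, without overlap and with replicate 2 the lowest. Controls 4 to 7 read 9.77, 9.85, 9.22 and 9.39, the 12 h arrays 9.69, 9.58, 9.47 and 9.51, and the 72 h arrays 9.34, 9.05, 9.47 and 9.28, so that these groups overlapped with their controls. The change at 24 h was -1.07 ± 0.22 (2.1-fold lower, adjusted p 0.00578), at 12 h 0.01 ± 0.19 (adjusted p 1) and at 72 h -0.27 ± 0.19 (adjusted p 0.595, interval -0.68 to 0.14). Controls 1 to 3 were 0.53 ± 0.21 above controls 4 to 7 (adjusted p 0.119). With the second set fitted alone the 24 h call was lost (adjusted p 0.162).

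**Figure D3:**
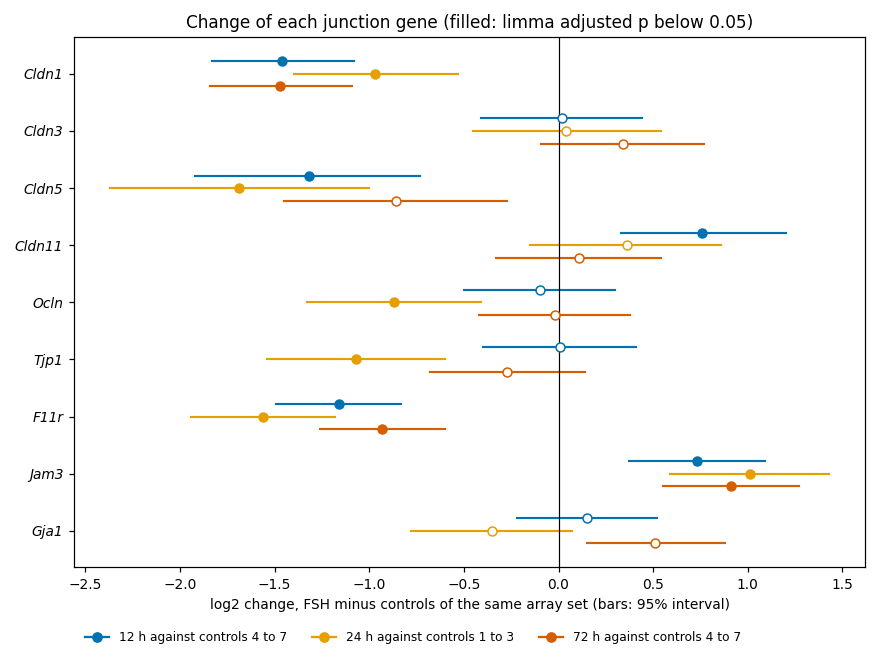
Log2 change of the main probe set of each gene at 12, 24 and 72 h of FSH against the controls of the same set (points), with 95% intervals; filled points have a limma adjusted p below 0.05. The intervals of F11r and Cldn1 lie below 0 and those of Jam3 above 0 at all 3 times, and Ocln and Tjp1 are filled at 24 h only.

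Gja1, connexin 43, which forms gap junctions between Sertoli cells and in Leydig cells, was not called with its main probe set, and its 6 probe sets did not agree at 24 h. The main one, 1437992_x_at, read 11.13, 11.02, 10.55 and 10.49 in controls 4 to 7, 11.21, 10.73, 10.77 and 11.08 at 12 h and 11.31, 11.14, 11.46 and 11.32 at 72 h. In the second set it read 11.82, 11.37 and 11.23 in controls and 11.23, 11.26 and 10.87 at 24 h. The 72 h arrays lay just above all controls of their set, by 0.51 ± 0.17 (1.43-fold, interval 0.15 to 0.88, adjusted p 0.105), and passed the test only with array weights (0.50, adjusted p 0.0454). The changes at 12 h (0.15 ± 0.17, adjusted p 0.911) and 24 h (-0.35 ± 0.20, adjusted p 0.229) were not called.

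Among the other Gja1 probe sets, 1415800_at fell at 24 h by 1.07 ± 0.23 (log2, SE; adjusted p 0.00786), from 9.80 ± 0.16 to 8.72 ± 0.30 (SD, n = 3), a call lost with array weights (-0.96, adjusted p 0.0942) and with the second set alone (adjusted p 0.0662). At the same time 1438945_x_at changed by -0.66 ± 0.23 (adjusted p 0.0731), 1438650_x_at by -0.22 ± 0.12 (adjusted p 0.206) and 1438973_x_at by -0.03 ± 0.07, none of them called. Only 1415801_at was on average above its controls at 24 h, by 0.33 ± 0.33 (adjusted p 0.499). The last differed above all between the technical sets: controls 1 to 3 read 9.17 ± 0.53 (SD, n = 3) and controls 4 to 7 6.87 ± 0.34 (n = 4), a difference of 2.31 ± 0.30 (adjusted p 0.000465). The main probe set differed between the control sets by 0.68 ± 0.18 (adjusted p 0.034) and 1438650_x_at by 0.42 ± 0.11 (adjusted p 0.0262). The sixth, 1438973_x_at, stayed between 4.24 and 4.70 on all arrays. At 72 h every Gja1 probe set was on average above its controls, and none was called. Beside the main one, 1415801_at changed by 0.55 ± 0.28 and 1438945_x_at by 0.35 ± 0.20. For 1438650_x_at the change was 0.30 ± 0.10 (adjusted p 0.108), for 1415800_at 0.26 ± 0.20 and for 1438973_x_at 0.04 ± 0.06. Counting all 22 probe sets, 5 were called at 12 h, 7 at 24 h and 3 at 72 h.

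**Figure D4:**
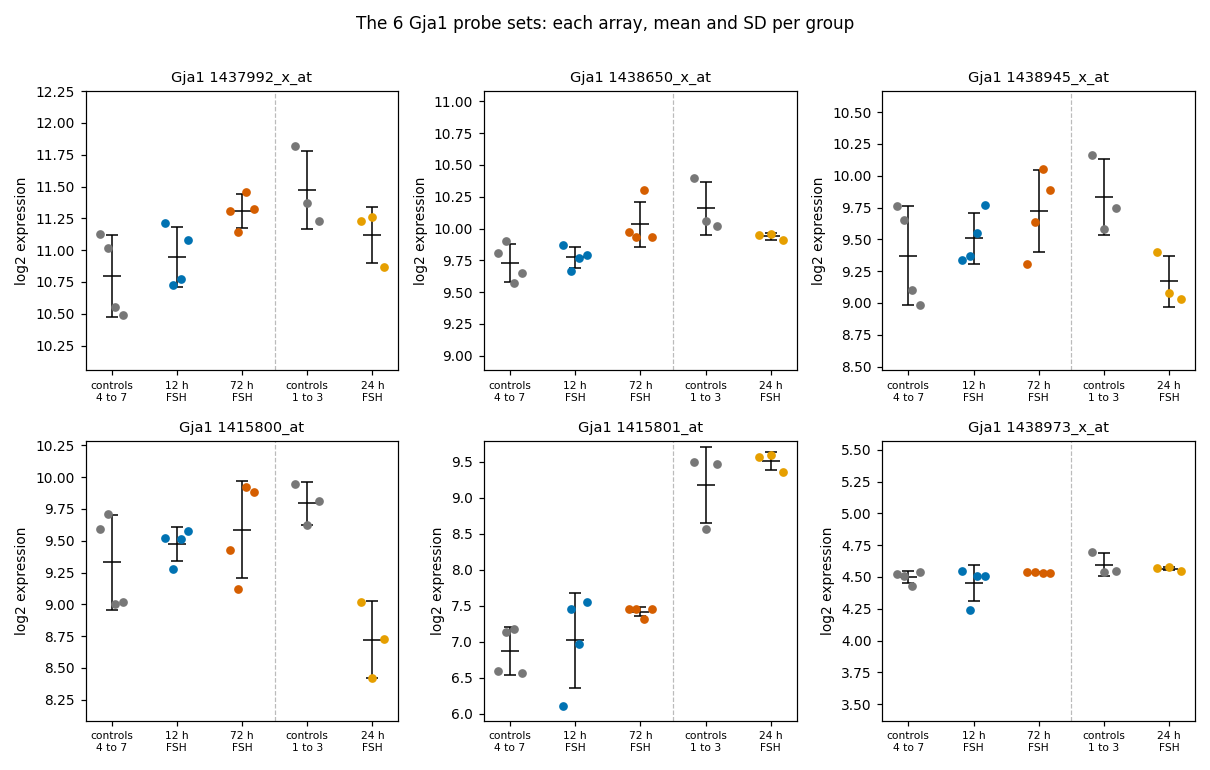
Log2 expression of the 6 Gja1 probe sets on every array (points) with the mean and SD of each group (bars); the dashed line parts the technical sets, and axes differ between panels. Probe set 1415800_at is lower at 24 h than in controls 1 to 3, whereas 1415801_at is about as high at 24 h as in those controls and both groups stand above the other 12 arrays.

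Differences between times were not called for any of the 9 genes. Between 72 h and 12 h limma called 0 of 9 (2.36% of all probe sets), and 1 had an unadjusted p below 0.05, although the arrays of the 2 times did not overlap for Cldn11 and Tjp1 (8.44% of probe sets). The change at 24 h less that at 12 h was called for 0 of 9 (0.875% of probe sets; 2 with an unadjusted p below 0.05), and the change at 72 h less that at 24 h for 0 of 9 (0.371%; 4 with an unadjusted p below 0.05). The falls of Ocln and Tjp1 at 24 h are therefore not shown to differ from the other times. For Ocln the 24 h change was 0.78 ± 0.28 below that at 12 h (adjusted p 0.216), and that at 72 h was 0.86 ± 0.28 above that at 24 h (adjusted p 0.254). For Tjp1 the 24 h change lay 1.08 ± 0.29 below that at 12 h (adjusted p 0.103), a difference that passed the test without 24 h replicate 1 (-1.28, adjusted p 0.03).

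Across the 18 arrays, as deviations from the controls of each set, Cldn5 and F11r ran most alike of all pairs among the 9 genes (Pearson r = 0.87), followed by Cldn1 and F11r (r = 0.76). Jam3 ran against Cldn1 (r = -0.82) and F11r (r = -0.81). These values are descriptions over arrays that share treatment and control means. Among all genes, those most like F11r were Coq8a (r = 0.96), Trim47 (r = 0.96) and Krt20 (r = 0.94), and Trim47 was also among the closest to Cldn5 (r = 0.91), after Dpyd (r = 0.93) and Grb14 (r = 0.92). Cldn1 was followed most closely by Abca8a (r = 0.94), Fam110c (r = 0.93) and Rgs10 (r = 0.93), and Jam3 by Pip5k1b, Racgap1 (both r = 0.91) and Wfdc1 (r = 0.90). Closest to Cldn11 were Atp7a (r = 0.93), Eif1ax (r = 0.91) and Fhl1 (r = 0.90). For Tjp1 they were Rrp1b, Ghr (both r = 0.94) and Pkp4 (r = 0.93), and for Ocln they were Mapk8ip1, Epb41l3 (both r = 0.85) and Fkbp15 (r = 0.83).

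Of the other genes of the tight junction, 35 measured among 41 listed, 1 rose and 1 fell at 12 h, 2 rose and 2 fell at 24 h, and 2 fell at 72 h. Over all genes 3.52% rose and 2.76% fell at 12 h, 6.38% rose and 8.45% fell at 24 h, and 4.23% rose and 3.03% fell at 72 h. The claudin Cldn23 rose at 12 h (0.79 ± 0.20, adjusted p 0.0292), with a mean of 4.56 there and of 3.77 or less in every other group. For 72 h against 12 h Cldn23 was the only gene of the list called (-1.25 ± 0.20, adjusted p 0.00349), beside 2.86% of all genes. Marveld2, the tricellulin of contacts where several cells meet, fell at 12 h (-0.53 ± 0.14, adjusted p 0.0407) and 72 h (-0.52 ± 0.14, adjusted p 0.0386), and the junction protein Cgnl1 fell at 72 h (-0.85 ± 0.24, adjusted p 0.0494). At 24 h the polarity proteins Pard6b (-0.88 ± 0.15, adjusted p 0.00158) and Prkci (-0.61 ± 0.13, adjusted p 0.00757) fell, and Amot (0.82 ± 0.16, adjusted p 0.00482) and the scaffold Magi1 (0.62 ± 0.14, adjusted p 0.00899, with group means of 3.82 or less) rose. The list's median change was 0.00, 0.02 and 0.00 at the 3 times.

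Adherens and ectoplasmic specialisation genes rose at 12 h in 6 of 19 cases measured of 20, and none fell, where 3.52% of genes rose and 2.76% fell. Nectin2, an adhesion protein of the ectoplasmic specialisation, rose by 1.38 ± 0.18 (adjusted p 0.00023) and the actin cross-linker Actn4 by 1.01 ± 0.12 (adjusted p 9.19e-05). The actin bundling protein Espn rose by 0.87 ± 0.22 (adjusted p 0.0319) and the actin anchor Vcl by 0.58 ± 0.12 (adjusted p 0.00746). The other 2 were the laminin receptor subunit Itga6 and the actin regulator Vasp, both 0.76 higher. Without control 7 the count was 3. At 72 h 2 were called, Nectin2 (0.72 ± 0.18, adjusted p 0.0238) and Actn4 (0.47 ± 0.12, adjusted p 0.0256), and without control 6, 72 h replicate 2 or 72 h replicate 3 the count there was 0. At 24 h limma called 0, with 4 at an unadjusted p below 0.05. The list's median change was 0.11, 0.08 and -0.02 at the 3 times, and the difference between 24 h and 12 h was called for 0 of the 19 genes. For 72 h against 12 h 1 of the 19 was called, beside 2.86% of all genes: Actn4, lower at 72 h (-0.54 ± 0.12, adjusted p 0.0236).

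**Figure D5:**
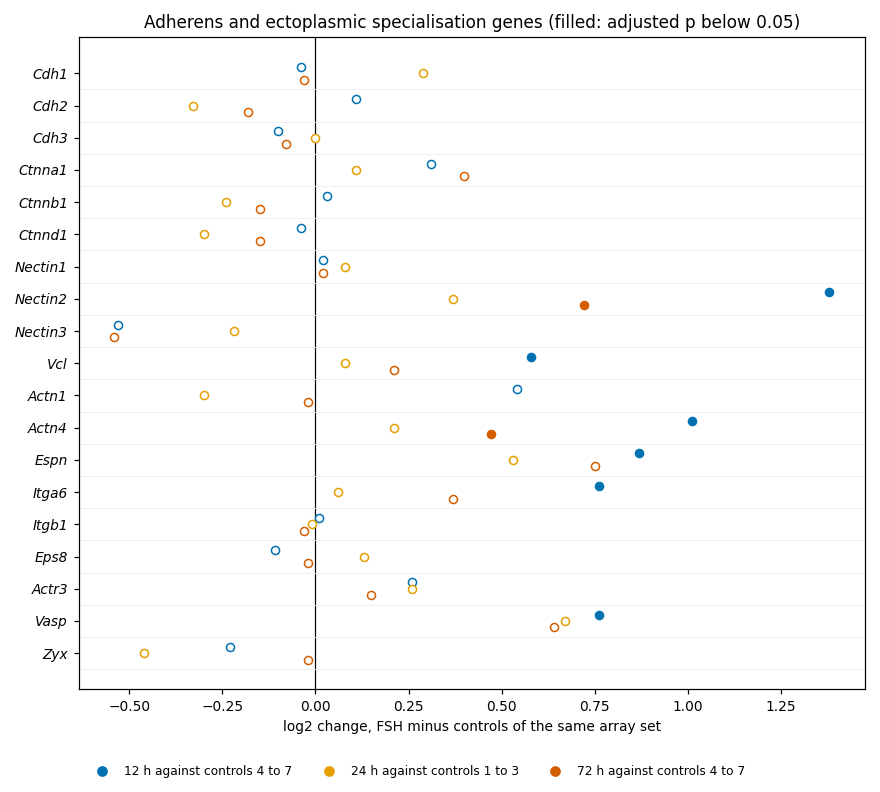
Log2 change of 19 adherens and ectoplasmic specialisation genes at 12, 24 and 72 h of FSH against the controls of the same set (points; filled where limma's adjusted p was below 0.05). The 6 filled points at 12 h are Nectin2, Vcl, Actn4, Espn, Itga6 and Vasp, all above 0, and no 24 h point is filled.

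Gap junction genes other than Gja1, 12 measured of 20, were called once, Gjb1 at 24 h (0.23 ± 0.05, adjusted p 0.0066, with group means of 2.82 or less), and Gja5 (0.24 ± 0.10), Gjb6 (0.33 ± 0.14) and Panx1 (-0.32 ± 0.15) did not pass the test there. Desmosome genes, 11 of 13, fell in 1, 2 and 1 cases at 12, 24 and 72 h, beside 2.76%, 8.45% and 3.03% of all genes. The plaque protein Jup fell at all 3 times (-0.83 ± 0.22, adjusted p 0.0439; -1.08 ± 0.26, adjusted p 0.0134; -0.97 ± 0.22, adjusted p 0.0172), with group means of 4.41 or less. At 24 h the plaque protein Pkp4 fell as well (-1.19 ± 0.25, adjusted p 0.00681), and Pkp2 (-0.94 ± 0.34, adjusted p 0.0852) and Dsc2 (0.24 ± 0.10, adjusted p 0.131) were not called. Of 20 known regulators of the junctions measured of 23, 1 fell at 12 h, 1 rose and 1 fell at 24 h, and 1 rose and 1 fell at 72 h, beside 6.28%, 14.8% and 7.26% of all genes called in either direction. The growth factor Tgfb1 rose at 72 h by 1.97 ± 0.23 (adjusted p 0.000114), from 3.42 ± 0.48 to 5.39 ± 0.27 (SD, n = 4). It was also higher at 72 h than at 12 h, by 1.37 ± 0.23 (adjusted p 0.00477), and its changes at 12 h (0.61 ± 0.23, adjusted p 0.172) and 24 h (0.72 ± 0.26, adjusted p 0.0834) did not pass the test. Tgfb3, of the same family, fell at 72 h (-1.39 ± 0.22, adjusted p 0.00139), from 6.36 ± 0.19 to 4.96 ± 0.41 (SD, n = 4). The transcription factor Ets1 fell at 12 h (-1.02 ± 0.25, adjusted p 0.0274) and 24 h (-0.97 ± 0.29, adjusted p 0.0401). The cytokine Il1a rose at 24 h (0.28 ± 0.07, adjusted p 0.0264), with group means of 2.59 or less, near the floor of the arrays. The receptor Tgfbr2 did not pass the test at 24 h (-1.17 ± 0.39, adjusted p 0.0593).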

How the data were processed

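Testis RNA (8 µg) was labelled with biotin and hybridised to Affymetrix MOE430A arrays, per the labels' protocols. The values the authors deposited, 1 per probe set and array, run from 1.04 to 14.8 in the probe sets tested and are treated as log2, though the table names no scale. RMA and GCRMA are named in the submitters' processing notes; which of them was used, with its version, is not given in the sources used here. Array control probe sets (64 of 22690) were left out. Of the 22626 tested, 20380 had 1 symbol in the platform annotation, 691 several and 1555 none; for 20351 the entrez identifier matched a RefSeq gene, and 0 symbols differed.

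Limma 3.58.1 in R 4.3.3 (lmFit, eBayes, two-sided) fitted 5 means over 18 arrays, 1 for each treated group and each set of controls, with 13 residual degrees of freedom and no filter on low values. Differences are of log2 means with SE, and understate changes near the floor. Tables were summarised with Python 3.11.15 and pandas 2.3.3. The fit was tested on simulated data. Named are all 9 genes with every probe set, up to 4 genes of each junction list by smallest p in the comparison with most calls, and the 3 genes most correlated with each gene called; Itga6, Vasp, Cldn23, Marveld2, Cgnl1 and Tgfb3, the values of Jup, Ets1 and Tgfb1 at other times than 24 h, and the marker genes named, were chosen after their values were seen. Members, lists and tests were chosen with earlier results of these data known, the split of the arrays into sets among them.

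Deviations of same-numbered 24 h and control 1 to 3 arrays correlated at 0.18, 0.34 and 0.41. The labels do not state a pairing, and differently numbered arrays were not compared, so pairing is not shown. An alternative with a replicate block, chosen after seeing the data, treated these numbers as pairs. It kept 6 of the 9 genes called at 24 h and moved the probe sets called from 3023 to 4827. For same-numbered 12 h and 72 h arrays the correlations were 0.11, 0.13, 0.01 and 0.07. Alternatives were quantile normalisation, median centring, a minimum mean of 4, trend and robust variance, array weights, no set term, each set alone, the mean of all probe sets, a replicate block and leaving out each array. The number of arrays limits the precision.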

Additional observations from a re-analysis of the deposited data

Results flagged for a closer look

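In 5 of the 27 groups of 4 arrays tested for an array far from its group, 1 array stood apart by Dixon's criterion at 95%, where chance gives about 1 in 20. Jam3 read 8.26 in 12 h replicate 2, and the next array read 7.60. Cldn5 read 6.02 in the same array, with the next at 5.28. Cldn3 read 3.94 in 72 h replicate 2, with the next at 2.74. The other 2 lay at the floor of the arrays: Cldn3 read 2.60 in control 5, with the nearest at 2.71, and 2.74 in 12 h replicate 1, with the nearest at 2.70.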

How the results depend on the processing

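Calls of the 9 genes' main probe sets kept their direction in every alternative run, and those that crossed the threshold are given with the results, other than under the replicate block over all arrays and, for differences between times, with no set term, which are given here. The genes of the 9 called at 12 h numbered 5, and 2 with the replicate block over all arrays, in which control 4 alone links that set's controls to treated arrays; at 24 h 6, and 2 with the second set fitted alone; at 72 h 3, and 5 with array weights. The 0 called for 24 h less 12 h and for 72 h less 24 h became 1 and 3 with no set term: Cldn1 (0.59, adjusted p 0.0226), and Cldn1 (-0.60, adjusted p 0.0269), Cldn5 (1.20, adjusted p 0.0124) and F11r (0.58, adjusted p 0.0181). Probe sets called at 12, 24 and 72 h (1211, 3023 and 1388) were 1902, 1276 and 2414 with array weights; the block gave 255 at 12 h and 244 at 72 h, no set term 8137 at 24 h, the 24 h set alone 393 and the paired 24 h block 4827. For 72 h against 12 h (535) weights gave 1630 and the block 324. For 24 h less 12 h (198) they gave 114 and 52, no set term 9098 and the 24 h block 650. For 72 h less 24 h (84) no set term gave 7001, the minimum mean 45, the block 43 and the 24 h block 301. Median centring moved rises and falls from 723 and 488 to 1039 and 376 at 12 h, and from 822 and 566 to 1058 and 419 at 72 h. The adherens and ectoplasmic genes called, 6, 0 and 2 at 12, 24 and 72 h, were 0 at 12 and 72 h with the block; at 24 h 7 with no set term, 1 with the minimum mean or quantile normalisation and 2 with the 24 h block; and 4 at 72 h with weights, median centring or the minimum mean.

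Leaving out 1 array at a time gave 877 to 1278 probe sets at 12 h, 1678 (without control 1) to 3848 at 24 h, 994 to 1456 at 72 h, 290 to 579 for 72 h against 12 h, 94 to 756 for 24 h less 12 h and 46 to 399 for 72 h less 24 h. Of the 9 genes, 3 (without control 7) to 5 were called at 12 h, 5 to 6 at 24 h, 3 at 72 h, 0 for 72 h against 12 h, 0 to 1 for 24 h less 12 h and 0 for 72 h less 24 h. Of the adherens genes, 3 to 6, 0 to 1 and 0 to 3 were called. With the replicate block over all arrays the lost calls were Cldn5 (-1.39, adjusted p 0.248), Cldn11 (0.68, 0.73) and Jam3 (0.54, 0.717) at 12 h, Ocln (adjusted p 0.0784) at 24 h and Jam3 (0.73, 0.422) at 72 h. The cause of these shifts was not tested. Low probe sets, and 3 or 4 mice a group, limit what can be seen.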
